A study of Mus musculus with 18 samples.

Results

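Interferon response genes are genes whose transcription rises when a cell meets an interferon, and 38 of them were followed here through the livers of offspring whose mothers ate a control or a high-protein diet. The list was made up of named genes matched by the symbol that the array's annotation gives. For each gene, the probe set with the highest mean log2 signal over the 18 arrays was used. A probe set naming the gene alone was found for 35 of the 38, against 18193 genes on the whole array. The other 3, Tgtp1, Isg15 and Ifi44, have no value here. Of the 35, 34 passed the filter on low signal and were tested, among 11018 genes tested in all. Mx1 was measured under the filter.

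Interferons are secreted proteins that warn cells of viruses and other microbes. Type I interferons signal through Ifnar1 and Ifnar2 to a complex that holds Stat2 and Irf9 and binds a DNA element called the interferon-stimulated response element (ISRE). Interferon gamma signals through Ifngr1 and Ifngr2 to genes that carry the gamma-activated site (GAS). The genes switched on by these routes include GTPases that attack the vacuoles of intracellular microbes, sensors and blockers of viral RNA, chemokines that attract T cells, and parts of antigen presentation. In liver, both hepatocytes and Kupffer cells, the resident macrophages, respond to interferon.

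The animals were DUK mice, an outbred line bred from 4 outbred and 4 inbred lines. Dams received isoenergetic diets with 20% protein by weight (control) or 40% protein (high protein, HP). Control mothers had 20% protein through pregnancy and lactation, HP pregnancy mothers had 40% in pregnancy and 20% in lactation, and HP lactation mothers had 20% in pregnancy and 40% in lactation. Offspring livers were taken at postnatal day 21 and day 150, giving 6 groups of 3 arrays, each array hybridised with RNA pooled from several offspring. Pool sizes differ between label fields, and shared animals between pools are not addressed, so p-values measure the spread between these pools only. Offspring sex is not given in the labels, and the transcript Xist, made in females, reached 7343 on array 2 of the control at day 21 and 11644 on array 4 of HP lactation at day 150, against at most 93 on the other arrays. All 6 groups were of the same line, and no array was set aside for the main results. The liver label was borne out by the hepatocyte markers: 6 of the 8 listed were named alone on the array, all 6 passed the filter, and their summed signal lay between 158100 and 313600 on every array.

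Many of these genes hold letters that match the 2 interferon elements just before their start. In RefSeq's promoter windows, 250 bases before to 50 after the annotated start on GRCm38.p6, 30 of the 38 listed genes had an entry. The ISRE core GAAANNGAAA, on either strand, was present in 19 of the 30 (63.3%), against 3.99% of 27025 genes. The GAS motif TTCNNNGAA, which reads the same on both strands, was present in 9 of the 30 (30.0%), against 9.55% of all genes. The 2 searches were separate, and matches could overlap each other. A match is a description of the letters and not a site shown to be bound.

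The 250 bases before the start are shown for 5 genes described below, read 5′ to 3′ on the gene's strand, with motif matches in capitals. Irgm2 (chr11:58214727-58214976, plus strand) and Igtp (chr11:58199306-58199555, plus strand) are neighbouring genes for GTPases that rose with age in every diet group. They are shown because both carry a GAS match whose first base lies 11 bases ahead of an ISRE match. Their full windows also share an identical run of 61 bases. That run lies after the ISRE match, continues past the start of both genes and ends with the Igtp window. Irf1 (chr11:53769764-53770013, plus strand) is shown for its GAS match, Rsad2 (chr12:26456453-26456702, minus strand) for an ISRE match on the opposite strand, and Ifi47 (chr11:49076337-49076586, plus strand) because the member with the smallest adjusted p for age held neither motif in this window.
Irgm2: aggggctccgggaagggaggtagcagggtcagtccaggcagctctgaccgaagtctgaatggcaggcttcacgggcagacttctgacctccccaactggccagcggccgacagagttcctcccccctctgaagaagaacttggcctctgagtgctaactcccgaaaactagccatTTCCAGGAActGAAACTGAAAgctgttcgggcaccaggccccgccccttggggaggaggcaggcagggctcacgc
Igtp: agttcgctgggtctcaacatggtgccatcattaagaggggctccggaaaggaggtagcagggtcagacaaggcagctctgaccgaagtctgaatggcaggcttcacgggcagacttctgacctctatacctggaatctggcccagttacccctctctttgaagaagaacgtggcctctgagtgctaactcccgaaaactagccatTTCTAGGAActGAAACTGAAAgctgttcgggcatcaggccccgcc
Irf1: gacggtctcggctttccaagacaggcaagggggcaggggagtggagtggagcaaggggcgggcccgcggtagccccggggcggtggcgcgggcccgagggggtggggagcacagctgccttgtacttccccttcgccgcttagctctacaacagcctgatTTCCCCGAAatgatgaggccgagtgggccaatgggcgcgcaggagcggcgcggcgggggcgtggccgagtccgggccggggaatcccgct
Rsad2: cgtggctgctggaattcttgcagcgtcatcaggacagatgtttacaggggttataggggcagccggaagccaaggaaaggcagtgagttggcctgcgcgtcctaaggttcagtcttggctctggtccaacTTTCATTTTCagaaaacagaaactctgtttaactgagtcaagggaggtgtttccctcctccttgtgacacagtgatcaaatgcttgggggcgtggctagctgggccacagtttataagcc
Ifi47: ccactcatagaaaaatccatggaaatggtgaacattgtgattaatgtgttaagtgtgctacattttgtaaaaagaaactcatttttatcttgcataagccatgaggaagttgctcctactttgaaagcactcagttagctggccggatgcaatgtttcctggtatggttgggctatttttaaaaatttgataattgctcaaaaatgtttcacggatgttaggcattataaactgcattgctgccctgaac

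The same 11-base offset between the first bases of a GAS and an ISRE match was found in the window of Tgtp1, the listed GTPase that could not be measured. In Irgm2 the GAS match began 75 bases before the start, in Igtp 45 and in Tgtp1 88. Bst2, which is not of this GTPase family, held a GAS match whose first base lay 6 and 12 bases ahead of those of ISRE matches. The windows of Irf7 and Oasl1, also higher at day 150 in every diet group, held neither motif. Of the genes that were higher at day 150 in at least 1 diet group, 11 of the 17 with a window held the ISRE core. Of the tested genes higher in none, 6 of 10 did. No test was made of that difference.

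**Figure D1:**
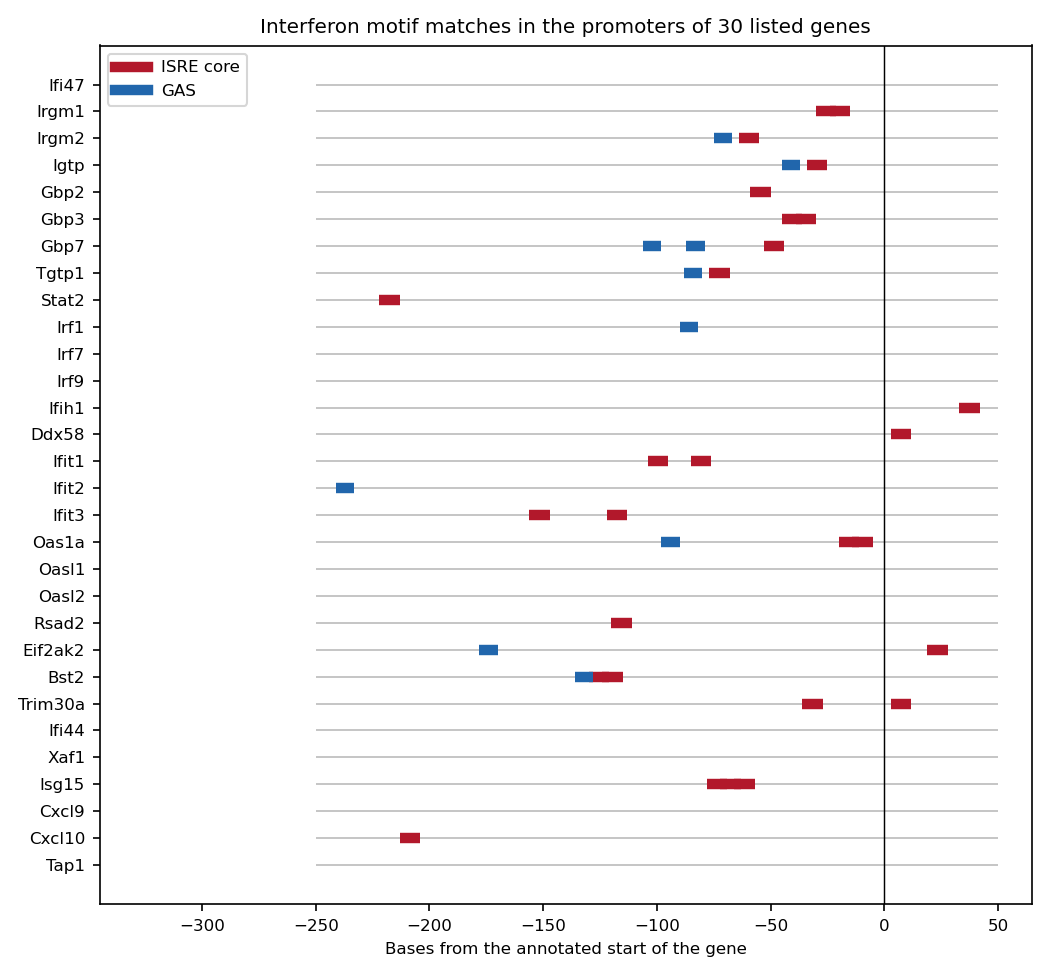
Matches to the ISRE core (red) and the GAS motif (blue) in the promoter windows of 30 listed genes, by distance in bases from the annotated start (vertical line); where a gene has more than 1 window, all are drawn on its row. Most matches lie within 150 bases before the start. Irgm2, Igtp and Tgtp1 carry a GAS match just ahead of an ISRE match, and in Bst2 such matches overlap.

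The main change in these genes was with age. Offspring of day 150 had higher signals than offspring of day 21 for most members in each of the 3 diet groups, which share no arrays in this comparison. In the control group 13 of 34 members rose (adjusted p under 0.05 in limma with Benjamini-Hochberg adjustment over all 11018 genes) and 0 fell, where 9.7% of all genes rose and 8.08% fell. In the HP pregnancy group 12 rose and 1 fell, against 12.1% and 11.5% of all genes. In the HP lactation group 18 rose and 0 fell, against 14.1% and 11.6%. The members' median log2 change was 0.66, 0.46 and 0.66 in the 3 groups in that order, and the median over all genes was 0.02, 0.02 and 0.03.

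Of the 34 genes, 8 rose in all 3 diet groups (23.5%, against 5.98% of all genes), namely Ifi47, Irgm2, Igtp, Irf1, Irf7, Zbp1, Oasl1 and Parp14. A further 5 rose in 2 groups and 9 in a single group, so 22 rose in at least 1. The sign of the change was positive in all 3 groups for 27 members (79.4%, against 35.3% of all genes), negative in all 3 for Ddx58 and Usp18, and mixed for 5. These signs rest on 1 probe set per gene. For 8 members, 10 other probe sets also passed the filter. Of those 10, 1, 5 and 4 had the opposite sign to the chosen probe set in control, HP pregnancy and HP lactation. Zbp1, Oas2 and Mx2 passed the filter only through their day-150 signal. The genes that rose in all 3 groups include Zbp1, and the 27 with a positive sign include Zbp1, Oas2 and Mx2. Both shares thus partly reflect the filter. Without Zbp1, Oas2 and Mx2 the members that rose numbered 12, 9 and 16 of 31, with median log2 changes of 0.64, 0.38 and 0.63.

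**Figure D2:**
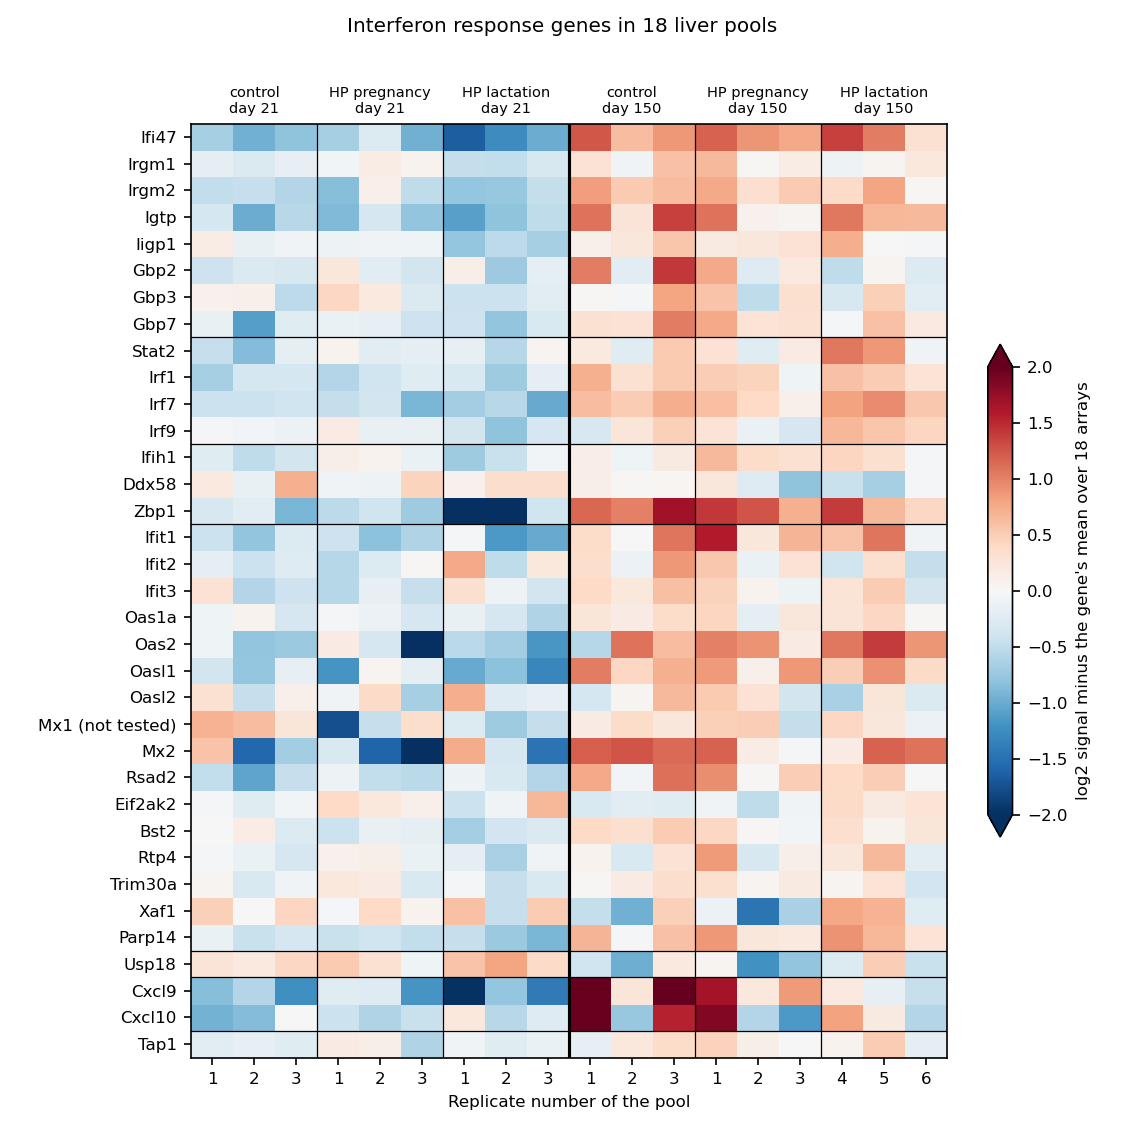
Log2 signal of the 35 measured members (rows, grouped by role) on each of the 18 arrays (columns, replicate numbers below), as the difference from the gene's mean over the 18 arrays; red is higher, blue lower, and colours saturate at 2. Most rows turn from blue at day 21 (left of the thick line) to red at day 150. Usp18 and Ddx58 run the other way in every diet group, and Xaf1 and Eif2ak2 in control and HP pregnancy.

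The immunity-related and guanylate-binding GTPases act on the membranes around intracellular microbes. By the chosen probe sets, all 8 measured had a positive change in every diet group. The smallest were 0.02 for Gbp3 after HP pregnancy and 0.03 for Gbp2 after HP lactation. In the control, HP pregnancy and HP lactation groups 5, 3 and 6 of the 8 rose. That was 62.5%, 37.5% and 75%, against 9.7%, 12.1% and 14.1% of all genes. Ifi47 is an interferon-gamma-inducible GTPase of this family. Its signals at day 21 were 1160, 941 and 1055 in control, 1154, 1520 and 943 after HP pregnancy, and 588, 766 and 920 after HP lactation. At day 150 they were 4322, 2810 and 3350, then 4146, 3401 and 3086, then 4733, 3718 and 2255. The lowest array of day 150 thus lay above the highest of day 21. The log2 change was 1.71 ± 0.24 (SE, adjusted p = 9.5e-05) in control, 1.57 ± 0.24 (0.00015) in the HP pregnancy group and 2.19 ± 0.24 (3.2e-06) in the HP lactation group by limma's fit.

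Igtp, also called Irgm3, and Irgm2 are GTPases that protect host membranes from attack by other members of the family. Igtp gave 1278, 822 and 1116 in control, 887, 1304 and 947 after HP pregnancy and 775, 935 and 1147 after HP lactation at day 21. At day 150 it gave 3487, 1955 and 4250, then 3485, 1739 and 1706, then 3416, 2603 and 2558. The 2 days did not overlap, although the control and HP pregnancy arrays of day 150 were widely spread. The fold of day 150 over day 21 was 2.91, 2.11 and 3.01 in the 3 groups (limma adjusted p = 0.0012, 0.01 and 0.00055). Without array 1 of HP pregnancy at day 150, the change in Igtp in that group was 0.74 on the log2 scale and missed the threshold (adjusted p = 0.067).

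For Irgm2 the corresponding folds were 2.25, 1.94 and 2.09 (limma adjusted p = 0.00089, 0.0029 and 0.0012). Irgm2 signals ran from 543 to 1048 at day 21 and from 991 to 1744 at day 150. The ranges met because array 2 of HP pregnancy at day 21 (1048) lay above array 6 of HP lactation at day 150 (991). Within each diet group the days were separate.

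Irgm1, a relative that acts with Irgm2 and Igtp, changed less, by log2 0.48, 0.22 and 0.49, and passed the test only after HP lactation (limma adjusted p = 0.038). The guanylate-binding protein Gbp7 rose in control (log2 1.03 ± 0.25, adjusted p = 0.0078) and after HP lactation (0.76, 0.03) in limma's fit. Gbp2 rose in control (1.09 ± 0.33, limma adjusted p = 0.03), where its day-150 arrays were 565, 242 and 743. Array 2 lay near the day-21 arrays of 209, 227 and 224. The call was lost without any 1 of the other 5 control arrays (highest adjusted p 0.16, without array 3 of day 150). Gbp3 did not pass in any group. Second probe sets for Gbp2 and Gbp7 gave smaller age changes, 0.40 and 0.29 in control, and negative ones after HP pregnancy (-0.15 and -0.22). After HP lactation they gave -0.31 for Gbp2 and 0.07 for Gbp7, so the rise of Gbp7 there was seen with the chosen probe set only.

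Iigp1, another GTPase of the family and an effector that disrupts parasite vacuoles, rose with age after HP lactation (log2 0.89 ± 0.16, limma adjusted p = 0.00058). In control and after HP pregnancy its change was 0.32 in each (adjusted p = 0.18 and 0.16). Its arrays are given with the diet comparisons below.

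Of the transcription factors that carry the interferon signal, Irf7 and Irf1 rose in every diet group, and Irf9 and Stat2 after HP lactation only. Irf7, which amplifies type I interferon production, had signals of 233, 234 and 237 in control at day 21 and 483, 448 and 518 at day 150. After HP pregnancy its signals were 227, 243 and 166, then 478, 415 and 338. After HP lactation they were 195, 215 and 156, then 549, 605 and 457. No day-150 array overlapped the day-21 arrays. The log2 change was 1.04, 0.96 and 1.51, each with SE 0.18 (limma adjusted p = 0.00071, 0.00099 and 8.8e-06).

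Irf1, which is induced through the GAS element and activates GTPase and antigen-presentation genes, had signals from 658 to 941 at day 21 and from 1014 to 1769 at day 150. Its folds were 1.96, 1.61 and 1.82 in the 3 diet groups (limma adjusted p = 0.00097, 0.008 and 0.0015). Irf9 and Stat2, partners in the complex that binds the ISRE, rose only in the HP lactation group by this test, by log2 1.05 and 0.84 (limma adjusted p = 0.00074 and 0.038). The difference of their age change from that in control was 0.85 for Irf9 (adjusted p = 0.93) and 0.18 for Stat2 (adjusted p = 0.98). The second probe set of Stat2 changed by 0.09 after HP lactation.

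Among the sensors of foreign nucleic acid, Zbp1, which recognises Z-form nucleic acid, rose in all 3 groups from low signals. Its signals at day 21 were 63, 67 and 42 in control, 55, 60 and 48 after HP pregnancy and 5.6, 15.1 and 59.5 after HP lactation. At day 150 they lay between 105 and 253, so the days did not overlap. Since the filter stood at a signal of 57.5, most day-21 values of Zbp1 were low, and its log2 change of 3.02 after HP lactation was 1.38 with 50 added to each signal. Its calls in control and after HP pregnancy were lost on leaving out any 1 of 6 and of 5 arrays respectively (highest adjusted p 0.12 and 0.11). Ifih1, the sensor of long double-stranded RNA also called Mda5, rose after HP lactation (0.65 ± 0.16, limma adjusted p = 0.0063) and changed by 0.45 and 0.42 in the other groups (adjusted p = 0.061 and 0.065). Ddx58, the RNA sensor also called Rig-I, was the exception. Its change was negative in each group (-0.19, -0.38 and -0.65, limma adjusted p = 0.65, 0.3 and 0.062).

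Among 15 antiviral effectors tested, 4, 6 and 6 rose and 0 fell in the 3 groups. Over all genes 9.7%, 12.1% and 14.1% rose. The effector counts include calls of Oas2 and Mx2 in the HP groups, and both genes passed the filter only through their day-150 signal. Parp14, an ADP-ribosyltransferase, gave 348, 281 and 302 at day 21 and 614, 373 and 576 at day 150 in control. After HP pregnancy it gave 281, 291 and 272, then 696, 449 and 439, and after HP lactation 278, 230 and 204, then 714, 609 and 463. Each day-150 array lay above all 9 day-21 arrays. The folds of Parp14 were 1.65, 1.83 and 2.49 (limma adjusted p = 0.027, 0.0066 and 0.00024), and the first was lost on leaving out any 1 of 4 control arrays (highest adjusted p 0.12, without array 1 of day 150).

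Oasl1, an inhibitor of Irf7 translation related to the oligoadenylate synthetases, rose 2.22-, 2.06- and 3.12-fold (limma adjusted p = 0.019, 0.024 and 0.0011). Rsad2, the enzyme viperin that makes a chain-terminating nucleotide, rose in control (log2 1.27 ± 0.27, adjusted p = 0.0037) and after HP pregnancy (0.86, 0.028). After HP lactation it changed by 0.63 (adjusted p = 0.095). Its control arrays were 335, 227 and 339 at day 21 and 789, 450 and 1008 at day 150, with no overlap. Of its other probe sets, the stronger changed by 0.69, 0.83 and 0.60 in the 3 groups and the weaker by 0.17, -0.09 and -0.44. Bst2, or tetherin, which holds budding viruses at the cell surface, rose in control (0.45 ± 0.14, limma adjusted p = 0.039) and after HP lactation (0.66 ± 0.14, 0.0026).

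Ifit1, which binds viral RNA caps, rose after HP pregnancy (1.44, limma adjusted p = 0.0088) and HP lactation (1.25, 0.019), and changed by 0.98 in control (0.077). Oas2, an oligoadenylate synthetase with low day-21 signals, rose in the same groups (1.53 and 1.91, limma adjusted p = 0.04 and 0.012), with 0.91 in control (0.25). In Oas2 after HP pregnancy, 3 of 6 leave-outs of an array ended the call, and without array 3 of day 21 the change was 0.78 (adjusted p = 0.25). Oas1a passed after HP lactation (0.60, limma adjusted p = 0.021), with 0.38 in control and 0.32 after HP pregnancy (0.16 and 0.22). Mx2, a dynamin-like GTPase whose day-21 signals were also low, passed after HP pregnancy (1.94, limma adjusted p = 0.031), with 1.76 in control and 1.18 after HP lactation (0.06 and 0.18). The change of Mx2 after HP pregnancy was 0.91 with 50 added to each signal, and 4 of 6 leave-outs ended its call (highest adjusted p 0.16). The other effectors tested, Ifit2, Ifit3, Oasl2, Eif2ak2, Rtp4, Trim30a and Xaf1, did not pass in any group, and their changes ran from -0.89 (Xaf1 after HP pregnancy) to 0.66 (Ifit2 in control). Mx1, the untested member, had signals from 13.8 to 75.2 over the 18 arrays.

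Usp18, the protease that removes Isg15 from proteins and damps signalling at the type I receptor, was the only member that fell by the test. Its signals after HP pregnancy were 707, 603 and 461 at day 21 and 508, 212 and 282 at day 150 (log2 -0.90 ± 0.31, limma adjusted p = 0.04). Array 1 of day 150 overlapped the day-21 arrays, and the call was lost on leaving out any 1 of 4 arrays (highest adjusted p 0.20, without array 2 of day 150). In control and after HP lactation Usp18 changed by -0.68 and -0.66 (adjusted p = 0.14 and 0.12).

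**Figure D3:**
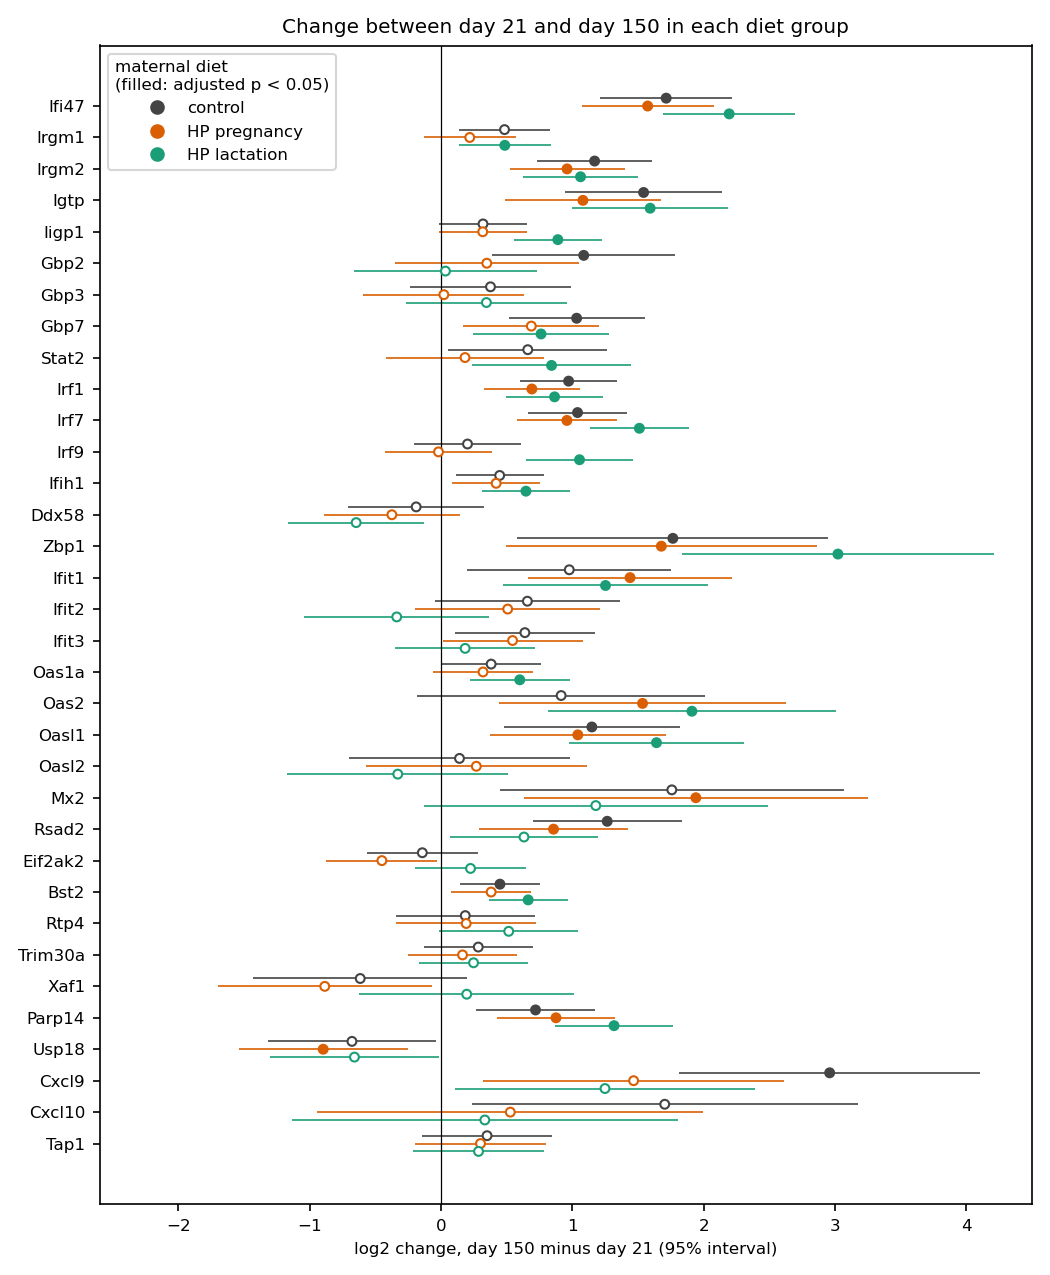
Log2 change from day 21 to day 150 (x axis) for the 34 tested members (rows) in the control, HP pregnancy and HP lactation groups; lines are 95% intervals from limma's fit and filled points passed an adjusted p of 0.05. Ifi47, Irgm2, Igtp, Irf1, Irf7, Zbp1, Oasl1 and Parp14 are filled in all 3 colours, and Usp18 and Ddx58 lie left of 0.

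The chemokines varied widely between pools at day 150. Cxcl9 attracts T cells and is induced mainly by interferon gamma. Its day-21 signals in control were 272, 328 and 209. At day 150 they were 3135, 582 and 4802, so array 2 stood well below the other 2 but above day 21. Cxcl9 rose 7.78-fold in control (log2 2.96 ± 0.55, limma adjusted p = 0.0012). After HP pregnancy its arrays went from 416, 411 and 216 to 1549, 570 and 881 (log2 1.47, adjusted p = 0.059). After HP lactation they went from 125, 287 and 184 to 560, 440 and 358 (1.25, adjusted p = 0.1). The days did not overlap in either HP group.

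Cxcl10, a second ligand of the receptor of Cxcl9 and a near neighbour of it on chromosome 5, gave 728, 74 and 364 in control at day 150 and 453, 84 and 56 after HP pregnancy. It did not pass in any group (log2 1.70, 0.53 and 0.33). Tap1, a subunit of the transporter that loads peptides for MHC class I, had differences of 0.35, 0.30 and 0.29 and did not pass.

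The calls were checked by leaving out each array in turn. In control 8 of the 13 called members passed each time: Cxcl9, Gbp7, Ifi47, Igtp, Irf1, Irf7, Irgm2 and Rsad2. After HP pregnancy 5 of 13 did, namely Ifi47, Irf1, Irf7, Irgm2 and Parp14. After HP lactation 13 of 18 did, and the 5 that did not were Gbp7, Ifit1, Irgm1, Oas1a and Stat2. Ifi47, Irf1, Irf7 and Irgm2 thus passed each time in all 3 groups. Without both arrays with Xist signal, 9, 13 and 16 members passed in control, HP pregnancy and HP lactation, in either direction.

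The difference of the age change between an HP group and control was tested for each gene. It passed for 0 of 34 members for HP pregnancy and 0 of 34 for HP lactation, against 0.0182% of all genes in each. At an unadjusted p under 0.05 these were 0 and 4 members, against 3.87% and 5.1% of all genes. The largest members' differences for HP lactation included Irf9 (0.85), Iigp1 (0.57), Cxcl9 (-1.71) and Gbp2 (-1.05). Across the 34 genes, the age changes of the control and HP pregnancy groups had a Pearson correlation of 0.86, those of control and HP lactation 0.63, and those of both HP groups 0.78. Over all 11018 genes the same correlations were 0.80, 0.80 and 0.78. These are correlations across genes, which are not independent replicates.

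**Figure D4:**
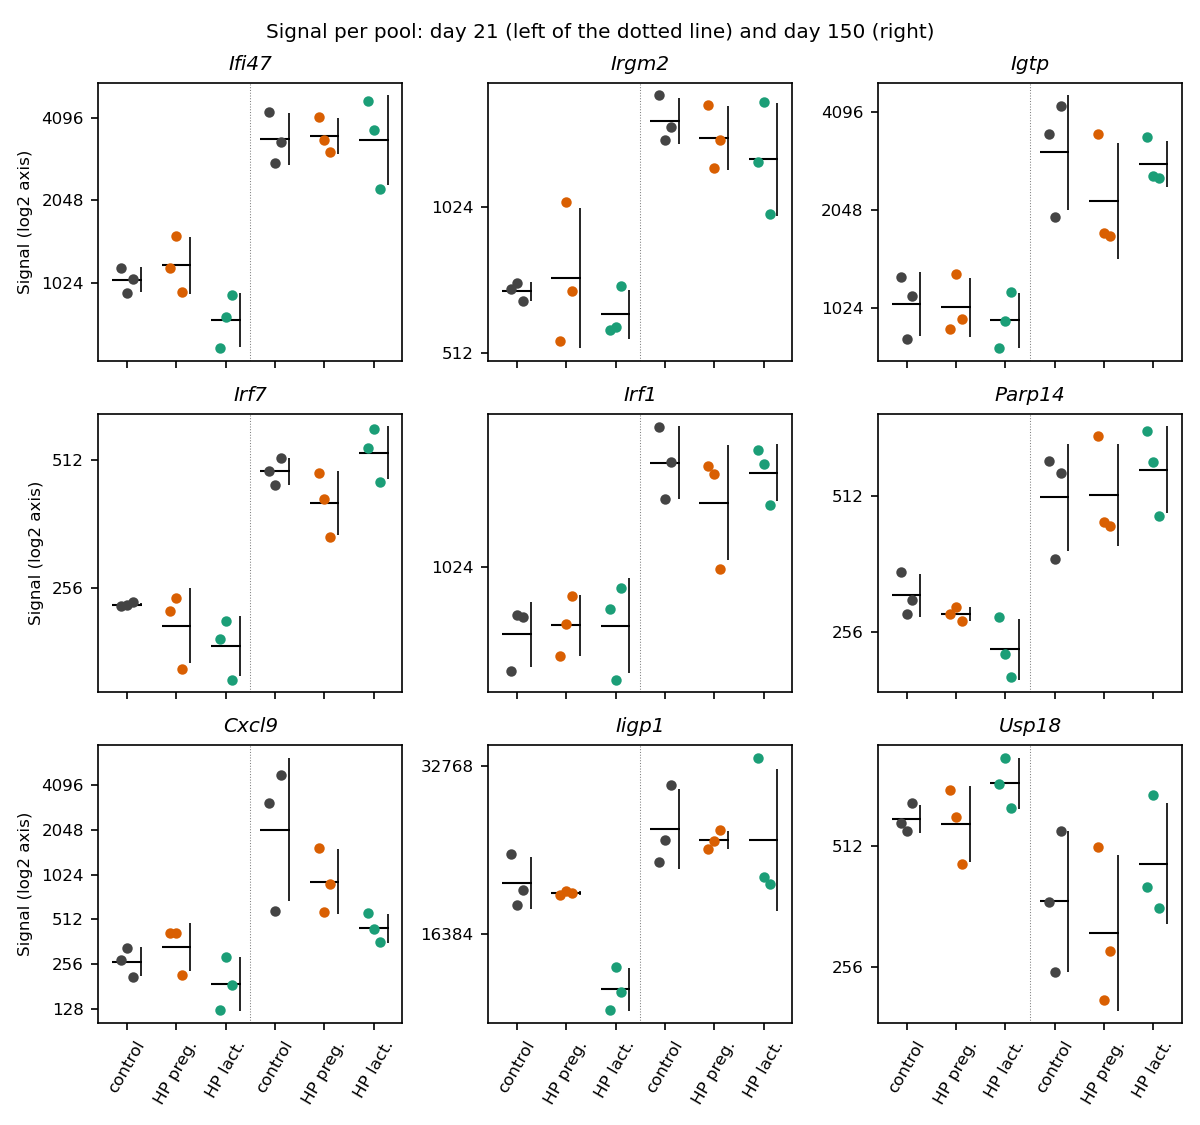
Signal on a log2 axis for 9 members in each pool (points), with the geometric mean of the 3 pools (horizontal line) and 1 SD of the log2 values either side (vertical line). The day-150 points of Ifi47, Igtp, Irf7, Irf1 and Parp14 lie above all day-21 points, Cxcl9 is widely spread in control at day 150, and Iigp1 is lowest in the 3 HP lactation pools of day 21.

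Some markers of other cell types moved with age as well, and not every marker list tested is described here. Of 9 Kupffer cell and macrophage markers tested, 3, 3 and 5 rose and 0, 1 and 1 fell. Over all genes 9.7%, 12.1% and 14.1% rose and 8.08%, 11.5% and 11.6% fell. Clec4f, specific to Kupffer cells, rose by log2 0.58, 0.70 and 0.83, and Mpeg1, a macrophage pore protein, by 1.30, 1.08 and 1.32. Marco, a scavenger receptor of macrophages, fell after HP pregnancy and HP lactation (-0.96 and -1.29, limma adjusted p = 0.041 and 0.0081) and had -0.61 in control (0.22). The macrophage protein Cd68 had 0.07, -0.60 and -0.70 and did not pass. The summed signal of the 9 markers was 12900 to 14470 in control, 14570 to 19470 after HP pregnancy and 10980 to 15400 after HP lactation at day 21. At day 150 it was 18720 to 25460, 23130 to 24930 and 17610 to 26050. Jchain, of antibody-secreting cells and 1 of 3 B cell markers tested, rose by 2.44, 2.82 and 3.35. Cd79b, of the same list, gave 40, 83 and 59 in control at day 21 and 35, 64 and 114 at day 150. After HP pregnancy Cd79b gave 57, 59 and 73, then 83, 50 and 90, and after HP lactation 43, 39 and 27, then 77, 91 and 49.5. Ms4a1, also of that list, ran from 6.6 to 125 at day 21 and from 76 to 137 at day 150. Of the 6 hepatocyte markers tested 0 passed in any of the 3 groups. Of the 13 T and NK cell markers named alone, only Gzma passed the filter, with negative changes of -1.17, -0.96 and -0.91 (adjusted p = 0.063, 0.11 and 0.12). In whole liver, more cells of a type and more RNA per cell cannot be told apart, and the part of these cells in the members' rise was not tested.

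Between maternal diets, 0 of the 34 members passed the test in limma. After HP pregnancy at day 21, 0 members passed (0% of all genes did), 1 had an unadjusted p under 0.05 (9.98% of all genes), and the median log2 difference from control was 0.02. After HP lactation at day 21, 0 passed (0.172% of all genes) and 4 had an unadjusted p under 0.05 (14.3%), with a median of -0.14. At day 150, 0 passed after HP pregnancy (2.63%) and 2 had an unadjusted p under 0.05 (20%), with a median of -0.12. After HP lactation at day 150, 0 passed (0.00908%) and 4 had an unadjusted p under 0.05 (7.72%), with a median of -0.12. The 2 diet groups of a day share their control arrays. Beside these backgrounds, the unadjusted counts are not a result about the members.

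Set against each other, HP pregnancy and HP lactation differed for 0 of 34 members at day 21 (1.28% of all genes) and 0 at day 150 (0.717%). At an unadjusted p under 0.05 these were 6 and 4 members, against 14.9% and 17.4%. All 6 at day 21 were higher after HP pregnancy, and all 4 at day 150 were lower. Over all genes 988 were higher and 658 lower at day 21, and 1011 and 905 at day 150. Beside these backgrounds, the unadjusted counts and their directions are not a result about the members. The median standard error of a difference between 2 groups, over the genes tested, was 0.19 on the log2 scale. The 95% intervals of the named members below show the sizes that remain possible.

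The smallest adjusted p among the members against control was that of Iigp1 after HP lactation at day 21. Its signals were 12023, 14311 and 12936, while control gave 22828, 18505 and 19633, and the HP pregnancy pools gave 19225, 19560 and 19384. The 3 HP lactation arrays were the lowest of the 18. The difference from control was -0.63 (95% interval -0.97 to -0.30, limma adjusted p = 0.11), and HP pregnancy exceeded HP lactation by 0.57 (0.24 to 0.91, adjusted p = 0.089). The second probe set of Iigp1 gave -0.66 and 0.62. At day 150 Iigp1 ran from 20172 to 33871 over the 3 diet groups, with differences from control of -0.06 in each HP group. Without both arrays with Xist signal the first difference was -0.70 and passed (adjusted p = 0.032), and the second also passed (0.019). After quantile normalization the first was -0.42 (adjusted p = 0.088). Beside this, the 6 hepatocyte markers had a median difference of -0.34 in the same HP lactation comparison, with 0 of 6 past the threshold and summed signals of 158100 to 196800 against 207900 to 228600 in control. After HP pregnancy at day 21 these markers had summed signals of 164600 to 195200, also below control, and Iigp1 differed from control by -0.06. The part of the hepatocyte markers in the lower signal of Iigp1 was not tested.

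Zbp1 had the largest negative difference at day 21, -1.72 after HP lactation (95% interval -2.90 to -0.53, limma adjusted p = 0.2). It rested on the 2 arrays at 5.6 and 15.1, while array 3, at 59.5, lay within the control range of 42 to 67. Without array 1 of HP lactation the difference was -0.91 (adjusted p = 0.58), and without array 3 it was -2.61 (0.011). With 50 added to each signal the difference was -0.54 (adjusted p = 0.33), both low arrays being far under the filter of 57.5. Ifi47, at 588 to 920, was also below every control array in that group (-0.49, interval -0.99 to 0.01, adjusted p = 0.36), as was Irf9 (-0.44, adjusted p = 0.32).

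At day 150 the lowest differences were those of Cxcl9. After HP lactation all 3 arrays (560, 440 and 358) were below all 3 controls (3135, 582 and 4802), by -2.21 (95% interval -3.36 to -1.07, limma adjusted p = 0.36). After HP pregnancy the difference was -1.16 (-2.31 to -0.02, adjusted p = 0.24), and the arrays overlapped. Array 2 of the control sets how these values read: without it they were -3.12 (adjusted p = 0.0038) and -2.08 (0.031), and the differences without array 3 of the control were -1.60 and -0.55. Gbp2 after HP lactation was -0.98 (interval -1.68 to -0.28, adjusted p = 0.5), with arrays of 197, 290 and 232 against 565, 242 and 743. Not all differences ran downward: of the members at a limma unadjusted p under 0.05 after HP lactation, 2 were higher and 2 lower. Eif2ak2 was higher by 0.53, with arrays of 727, 632 and 678 against 454, 479 and 475 in control, and did not pass. Its other probe sets gave 0.40 and -0.05.

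Between the HP groups at day 150 the smallest p-values were those of Irf9, Xaf1 and Eif2ak2. Irf9 after HP lactation was 850, 792 and 721, above the 649, 490 and 426 of HP pregnancy, and the control arrays, at 430, 636 and 750, spanned both. HP pregnancy was lower than HP lactation by -0.61 for Irf9 (95% interval -1.02 to -0.20, limma adjusted p = 0.12), by -1.15 for Xaf1, a pro-apoptotic interferon target (-1.96 to -0.33, 0.14), and by -0.49 for Eif2ak2, the kinase PKR that stops translation (-0.92 to -0.07, 0.22). Ifih1 was higher than control after HP pregnancy at both days, by 0.39 (0.06 to 0.73, adjusted p = 0.43) and 0.36 (0.03 to 0.70, 0.21). None of these passed, and the other probe sets of Eif2ak2 gave -0.22 and 0.20.

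**Figure D5:**
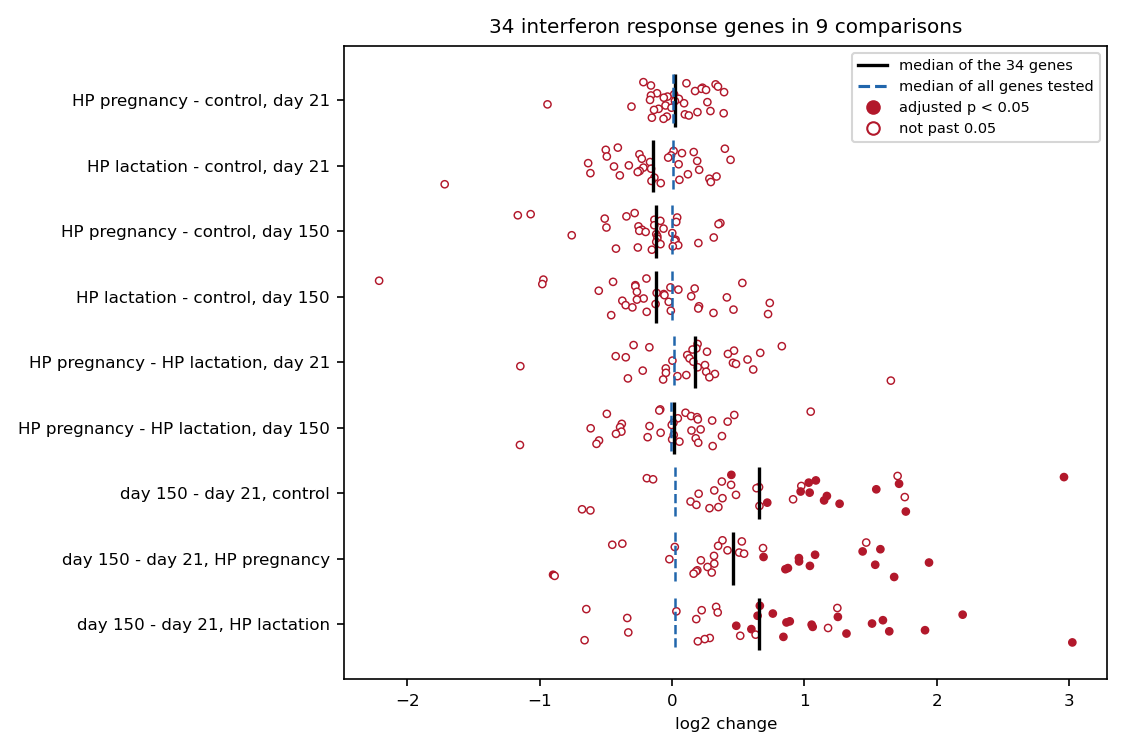
Log2 differences of the 34 tested members (points) in 6 diet comparisons and 3 age comparisons (rows); filled points passed an adjusted p of 0.05, the black line is the members' median and the dashed blue line the median of all genes tested. Filled points appear only in the 3 age rows, where the members' median lies between 0.46 and 0.66.

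Pools of the same group differed in these genes together. After the group means were removed, pairs of members had a mean Pearson correlation of 0.33 over the 18 arrays, against 0 for pairs among all genes. The arrays share their scaling, and this is a description. The median SD between the 3 pools of a group was 0.35, 0.36 and 0.33 on the log2 scale for the members at day 150 in control, HP pregnancy and HP lactation, and 0.21, 0.24 and 0.28 at day 21. Over all genes it lay between 0.16 and 0.22 in the 6 groups. Cxcl10 had the widest spread of the members in each day-150 group, up to an SD of 1.69 in control. Relative to the control mean of the day, array 3 of control stood at a median of 0.27 over the members and array 2 at -0.26, and array 1 of HP pregnancy at 0.18 against -0.33 and -0.21 for arrays 2 and 3. These gaps between pools of 1 group were larger than the members' median difference of -0.12 between either HP group and control at day 150.

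Other genes of the pathway were taken from a list of 104, of which 87 were named alone and 70 tested. None of the 5 interferon ligand genes named alone, among them Ifna4, Ifnb1 and Ifng, passed the filter. Ifng stayed between 1.1 and 39 on the 18 arrays. With age, 15, 13 and 19 of the 70 rose and 2, 4 and 5 fell in control, HP pregnancy and HP lactation. The share that rose was 21.4%, 18.6% and 27.1%, beside 9.7%, 12.1% and 14.1% of all genes. Of the 8 receptors and kinases tested, Jak2, the kinase at the gamma receptor, rose in each group (log2 0.66, 0.58 and 0.44, limma adjusted p = 0.001, 0.0021 and 0.012), but with the mean of all its kept probe sets it passed in no group (0.17, 0.15 and -0.06, adjusted p = 0.45, 0.5 and 0.8). By the same test the receptor chain Ifngr1 fell in each (log2 -0.52, -0.56 and -0.60, adjusted p = 0.039, 0.02 and 0.013). Leaving out 1 array ended the call of Ifngr1 in 5 of 6 cases in control (highest adjusted p 0.16), 4 of 6 after HP pregnancy (0.12) and 1 of 6 after HP lactation (0.055).

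The other interferon-induced genes gave 5, 5 and 9 of 34 higher and 1 lower in each group. The shares higher were 14.7%, 14.7% and 26.5%, so that of HP pregnancy lay near the 12.1% of all genes. Ifi27, a mitochondrial interferon-induced protein, rose by log2 1.64, 2.01 and 2.73 (limma adjusted p = 1.2e-05, 1.1e-06 and 1.3e-08). Gbp6, a further guanylate-binding protein, rose 6.16-, 2.82- and 3.64-fold, and Cxcl11, the third ligand of the Cxcl9 receptor, by log2 1.73, 1.35 and 1.23 (limma adjusted p from 0.0003 to 0.031). The call of Gbp6 after HP pregnancy was lost in 3 of 6 leave-outs of an array (highest adjusted p 0.17). Lgals3bp, a secreted glycoprotein, fell by 1.11, 1.81 and 1.02 on the log2 scale. In MHC class I presentation 5, 4 and 5 of 11 rose (45.5%, 36.4% and 45.5%), and 1, Tap2, fell after HP pregnancy. Psmb9, an immunoproteasome subunit, rose by 1.38, 1.09 and 1.45, and Nlrc5, the activator of class I genes, by 1.05, 0.94 and 1.07.

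Between diets, 2 of the 70 passed for HP pregnancy against control at day 150, where 2.63% of all genes did, and 1 of the 70 for HP pregnancy against HP lactation at day 150, where 0.717% did. These counts are near the background and are not a result about the pathway. At day 150 after HP pregnancy Trim25, the ubiquitin ligase that activates Rig-I, was 6118, 5825 and 5907 against 3730, 3941 and 4161 in control (log2 0.59, limma adjusted p = 0.029), and Tap2, the partner of Tap1, was 213, 195 and 215 against 375, 273 and 358 (-0.68, adjusted p = 0.045). Neither overlapped its control. Stat3, which serves interleukin-6 more than interferon, had a lower signal in the HP pregnancy group than in the HP lactation group at day 150 (-0.76, limma adjusted p = 0.041). Leaving out any 1 of the 6 arrays ended the calls of Trim25 (highest adjusted p 0.13) and Tap2 (0.19), and 5 of the 6 leave-outs ended that of Stat3 (0.25).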

How the data were processed

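Pooled liver RNA of 6 groups, 3 pools a group, was hybridised to 18 Affymetrix 430 2.0 arrays. The authors deposited linear signal intensity values, made with MAS5 in GCOS 1.4 per the submitters' processing notes. Their scaling and detection calls are not given in the sources used here. Trimmed means were nearly equal across arrays (495.9 to 496.8), while medians ran from 57.2 to 81.7. The number of arrays, 3 a group, limits the precision.

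Values were taken to log2 with nothing added. Genes were kept if their mean log2 reached 5.85, the median of all probe sets that are not controls. Of 45101 probe sets, 34945 had 1 gene symbol, 932 several and 9160 none, and 64 were controls. Group means were fitted over all 18 arrays with limma 3.58.1 (R 4.3.3), using an empirical Bayes trend and Benjamini-Hochberg adjustment over 11018 genes, with a threshold of 0.05, in 11 comparisons. The fit was tested on simulated data. Any member could be named. Array values were to be given for up to 12 members past the threshold in a comparison, and for the 3 with the smallest p between diets. Usp18, Cxcl10 and the array values of Ifi47 in the diet comparison were added after their values were seen. The members and lists were chosen with earlier results of these data known. Alternatives were other filters, scalings, probe set rules and fits, and each array left out. Promoters came from RefSeq windows on GRCm38.p6. Figures were drawn with Python 3.11.15 and matplotlib 3.10.9.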

Additional observations from a re-analysis of the deposited data

How the results depend on the processing

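Of 1863 values of named genes under the alternatives, 1654 stayed on their side of the threshold, 198 lost it, 10 gained it and 1 reversed: with the mean of all kept probe sets, Jak2 after HP lactation went from 0.44 to -0.061 with age, since its probe sets differ. Ifi47, Irgm2, Irf1 and Irf7 kept their age calls in all 3 diet groups under each alternative run.

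The 0 members past the threshold between diets became 1 in some alternatives. For HP lactation against control at day 21 it was 1 without both arrays with Xist signal, an alternative chosen after seeing the data (Iigp1). For HP pregnancy against HP lactation at day 21 it was 1 under quantile normalization, under array weights, at an adjusted p under 0.10 and without both Xist arrays. Leaving out 1 array gave 0 to 1 for HP lactation at day 21 (1 without its array 3, Zbp1), 0 to 1 for each HP group at day 150 (1 without control array 2, Cxcl9), and 0 to 2 for HP pregnancy against HP lactation at day 21 (2 without array 3 of HP lactation). The age count after HP pregnancy (13) was 8 with no filter, which tests more genes, and 20 with array weights. Leaving out 1 array gave 8 to 13 in control (8 without array 1 of day 150), 6 to 11 after HP pregnancy (6 without array 1 of day 150) and 14 to 17 after HP lactation. The cause of these shifts, that with no filter included, was not tested.

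Arrays with the same replicate number did not deviate together (correlations from -0.11 to 0.1 over 30 pairs), so no pairing by number was detected. The check cannot exclude that pools of the same number had something in common. With the replicate block, 1 member passed for HP pregnancy against HP lactation at day 21. HP lactation at day 150 has other numbers, so no paired analysis was possible there.

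Over all genes the counts moved more: from 290 to between 2 and 1053 for HP pregnancy at day 150, from 19 to between 6 and 79 for HP lactation at day 21, from 141 to between 33 and 361 and from 79 to between 1 and 418 for HP pregnancy against HP lactation at days 21 and 150, and from 1959, 2602 and 2830 to between 1151 and 2717, 1643 and 4275, and 1730 and 3703 with age. The low signals of Zbp1, Oas2, Mx2 and Mx1 limit what can be read from their differences.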
